A study of Mus musculus with 18 samples.

Results

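The cytochrome P450 genes of the mouse testis were described across 6 treatment groups. The set holds every gene of the deposited expression table whose symbol begins with Cyp and a digit, except Cyp11a1, Cyp17a1, Cyp26b1 and Cyp51, which were left out by the rule. Of 95 matching symbols, 91 remained, out of 20985 genes in the table. Whole testis of ICR mice, an outbred strain, was sequenced at 10 weeks of age, with 3 RNA libraries in each group. The control group carries no treatment in its label, and mice of the AOS group were given 10 mg/kg of alginate oligosaccharide, a mix of short carbohydrate chains derived from seaweed alginate. Streptozotocin, which kills insulin-producing cells of the pancreas and serves to model diabetes, was given alone in the STZ group and together with 10 mg/kg of AOS in the STZ+AOS group. The labels STZ+AOS10mg/kg-FMT and STZ+control-FMT, written below as STZ+AOS-FMT and STZ+control-FMT, were read as streptozotocin with a faecal microbiota transplant from donors given AOS or from control donors. Thus 4 of the 6 groups share streptozotocin, and the design text states that the transplants were tested on testis damaged by it. The labels give no streptozotocin dose and no number of animals. Since separate animals are not stated either, p-values measure the spread between libraries, which may be technical.

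Cytochromes P450 are haem enzymes that use oxygen and electrons to add a hydroxyl or epoxide group to a substrate. Those of families 1, 2 and 3 act mainly on drugs, pollutants and some steroids and are best known from liver. Family 4 enzymes act on the far end of fatty acids and leukotrienes, and other families make or clear bile acids, vitamin D, retinoic acid and steroid hormones. Most sit in the endoplasmic reticulum and take electrons from the reductase Por and from cytochrome b5, while the mitochondrial ones use ferredoxin. In testis the steroid-making P450s of Leydig cells are the best studied, and the main ones of these are among the genes left out by the rule.

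The 91 genes divided by known role into 47 of families 1, 2 and 3, 28 acting on fatty acids (family 4, the Cyp2j genes and Cyp2u1), 6 of oxysterol and bile acid metabolism, 4 of steroid hormone synthesis, 3 of vitamin D, 2 of retinoic acid and 1 without a settled role, Cyp20a1. Levels are FPKM, fragments scaled by transcript length and library depth, so levels of different genes can be set side by side. Of the 91, 26 reached 1 FPKM in at least 3 of the 18 libraries and were tested, and 65 did not. By role, 10 of the 26 belonged to families 1, 2 and 3, 8 to the fatty acid group, 3 to the oxysterol and bile acid group, 2 to the steroid hormone group, and 1 each were the vitamin D, retinoic acid and unsettled genes. In 15 of the 26 the level was at least 1 FPKM in all 18 libraries. The testis P450 signal was low and concentrated: 3 genes averaged at least 10 FPKM over all libraries, namely Cyp2d26 at 16.55, Cyp2a12 at 11.87 and Cyp2c55 at 11.07, and together these held 34% of the summed level of the 91 genes. The 10 highest genes held 71.9%. The summed level of the 91 genes lay between 110 and 113.9 FPKM in the control libraries, 104 and 112.6 with AOS, 111.7 and 158.2 with STZ, 105.7 and 115.8 with STZ+AOS, 102.5 and 123.1 with STZ+AOS-FMT, and 116.7 and 120.5 with STZ+control-FMT.

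The libraries were close in total and differed in cell-type content. Summed FPKM ran from 561038 to 622169 per library; read depth was unknown, so no counting interval is given. Replicates of a group correlated at 0.978 to 0.995 over log2 values. All 7 late spermatid markers (protamines, transition proteins and sperm-tail genes) were detected in every group, and all 7 were lower with STZ: their sum was 50050 to 56300 FPKM in control and 24580 to 45500 with STZ. Over all genes in the same comparison, 43.2% were higher and 12% lower. All 10 Sertoli cell markers were higher (sum 612.2 to 676.4 against 1524 to 1951 FPKM), as were 8 of 9 macrophage markers (68.29 to 69.15 against 169.2 to 340.8 FPKM) and 4 of 5 endothelial markers. Of the 9 Leydig cell markers 1 was higher. The marker calls were not repeated under other scalings. In the other 3 streptozotocin groups the marker sums were back near control, with late spermatid markers at 48910 to 58690, Sertoli markers at 642.6 to 736.3 and macrophage markers at 58.71 to 89.28 FPKM. In whole tissue, more cells of a type and more RNA per cell cannot be told apart, and the part of these marker shifts in the P450 values was not tested. Markers of hepatocytes, the cell in which many of these enzymes are best known, summed to at most 1.95 FPKM in any library.

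**Figure D1:**
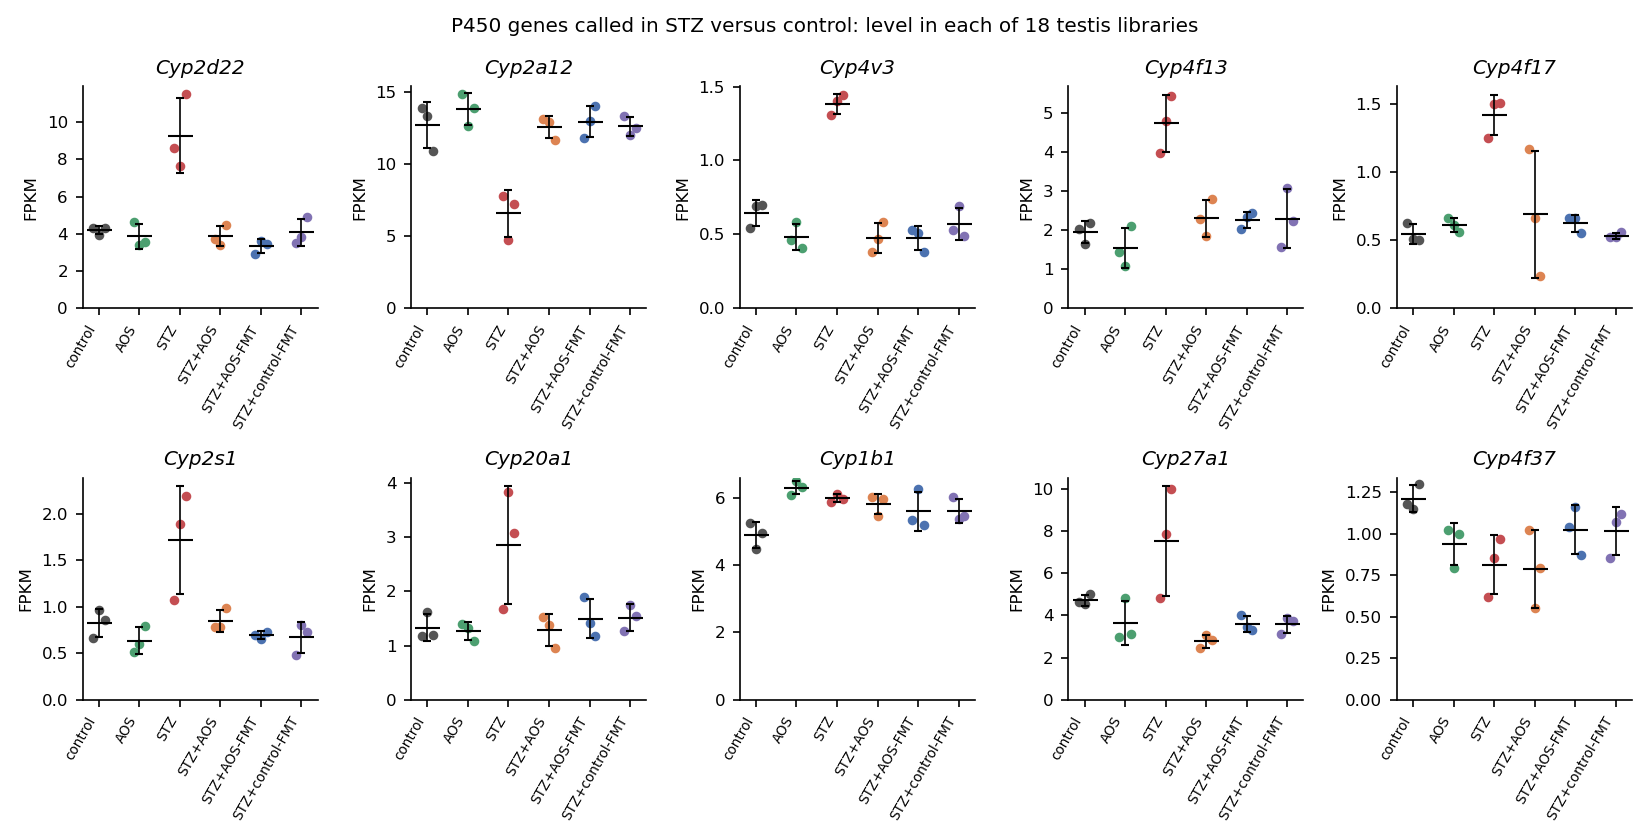
FPKM (vertical axis, linear) of the 10 P450 genes that passed the test between STZ and control, by group (horizontal axis). Points are the 3 libraries of a group and bars are the mean and SD. The STZ libraries of Cyp2d22, Cyp4f13, Cyp4v3, Cyp4f17 and Cyp2s1 lie above the other 15 libraries and those of Cyp2a12 lie below them. Cyp4v3, Cyp4f17 and Cyp2s1 reached the filter only through the STZ libraries.

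STZ against control asks how the P450 genes differed in the damaged testis. Among the 26 tested genes, 8 were higher with STZ (30.8%, against 43.2% of all 14164 genes tested) and 2 were lower (7.69%, against 12% of all genes). Those shares are at or below the background of a comparison in which most genes moved: the median log2 difference was 0.19 over the 26 and 0.17 over all genes. Raised genes were Cyp2d22, Cyp4v3, Cyp4f13, Cyp4f17, Cyp2s1, Cyp20a1, Cyp1b1 and Cyp27a1, and lowered genes were Cyp2a12 and Cyp4f37. Fold sizes are differences of log2(FPKM + 1), which understates changes of low genes. Of the raised genes, Cyp4v3, Cyp4f17 and Cyp2s1 reached the filter only through the STZ libraries, so for them a difference was needed to enter the test. The direction of many smaller differences depended on scaling: the all-gene median moved from 0.17 to -0.17 when each library was centred on its median, the all-gene calls moved from 6118 higher and 1705 lower to 2678 higher and 6119 lower, and the P450 calls moved from 8 higher and 2 lower to 2 higher (Cyp2d22 and Cyp4f13) and 10 lower. Quantile normalization gave an all-gene median of -0.06, all-gene calls of 3156 higher and 4093 lower, and P450 calls of 4 higher and 10 lower. Cyp2d22, Cyp4f13 and Cyp2a12 passed with the same sign in all 12 alternative analyses.

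Among the drug and xenobiotic enzymes, Cyp2d22 and Cyp2a12 moved in opposite directions. Cyp2d22, a member of the drug-oxidizing 2D family (chr15:82370527-82380260, minus strand), stood at 4.32, 3.94 and 4.31 FPKM in control and at 8.62, 7.66 and 11.51 with STZ. All 3 STZ libraries were above the other 15, which spanned 2.93 to 4.89. Its level was 9.263 ± 2.004 against 4.19 ± 0.22 FPKM (mean ± SD, n = 3 each), a log2 difference of 0.97 (SE 0.14, adjusted p = 3.81e-05). The highest P450 of the set, Cyp2d26 of the same family, did not pass, at 17.93, 11.35 and 13.85 with STZ against 16.78, 16.44 and 16.4 in control (log2 difference -0.21, 95% interval -0.46 to 0.03, adjusted p = 0.132). The 2 genes share few 50-base transcript stretches, 2.2% of those of Cyp2d22 and 4.8% of those of Cyp2d26.

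Cyp2a12, an enzyme known for hydroxylating steroids and bile acids in liver (chr7:27029081-27037375, plus strand), stood at 13.9, 13.31 and 10.93 FPKM in control and at 7.8, 4.72 and 7.21 with STZ. Every STZ library lay below the other 15, which spanned 10.93 to 14.84. The means were 6.58 ± 1.63 and 12.71 ± 1.57 FPKM (n = 3 each), a log2 difference of -0.87 (SE 0.13, adjusted p = 4.88e-05). The late spermatid marker sum was lower in the same STZ libraries; its part in this result was not tested. Of the 50-base stretches of Cyp2a12 transcripts, 20.1% also occur in Cyp2a22, so the counting of reads from the pair is uncertain. Because Cyp2a12 was the one abundant P450 whose fall held under every alternative, the sequence before its start is shown; of the 250 bases before the RefSeq gene start on GRCm38.p6 (chr7:27028840-27029080, plus strand), the 9 bases that lie inside the GENCODE gene model are left off, and the capitals mark a TATAAA match that begins 39 bases before the start.
Cyp2a12: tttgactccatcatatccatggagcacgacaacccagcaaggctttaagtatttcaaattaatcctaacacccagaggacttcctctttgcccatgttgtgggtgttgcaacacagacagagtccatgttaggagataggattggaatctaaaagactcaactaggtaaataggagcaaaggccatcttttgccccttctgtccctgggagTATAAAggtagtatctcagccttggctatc
TATAAA on either strand was found in 26 of 72 P450 windows of this length (36.1%) and in 12.4% of 32851 RefSeq windows.

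Smaller rises were found for Cyp2s1 and Cyp1b1. Cyp2s1, a P450 of epithelia (chr7:25802475-25816913), stood at 0.66, 0.96 and 0.86 FPKM in control and at 1.07, 1.89 and 2.19 with STZ, above the 0.48 to 0.98 of the other 15 libraries (log2 difference 0.55, SE 0.14, adjusted p = 0.00313). Only the STZ libraries of Cyp2s1 reached 1 FPKM, so passing the filter and this separation are not independent. An antisense gene, Gm26707, overlaps the Cyp2s1 exons, and reads of the pair cannot be told apart without strand. Cyp1b1, which hydroxylates oestradiol and is induced through the aryl hydrocarbon receptor (chr17:79701537-79715061), stood at 5.26, 4.48 and 4.97 in control and at 5.87, 6.11 and 5.98 with STZ (log2 difference 0.25, SE 0.07, adjusted p = 0.0109). The control libraries were also below those of the AOS group, at 6.1, 6.5 and 6.32. They were likewise below those of STZ+AOS, at 6.02, 5.47 and 5.97, and of STZ+control-FMT, at 6.02, 5.36 and 5.45. The STZ+AOS-FMT libraries, at 5.34, 6.26 and 5.2, overlapped control. Cyp1b1 was not called against STZ in any of these STZ groups. With quantile normalization the difference between STZ and control became -0.15 and with median centring -0.10, so its direction depended on scaling. The call was lost without control replicate 2 (adjusted p = 0.0597).

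The other 6 tested genes of families 1, 2 and 3 did not pass. Cyp2c55 fell short at 10.62, 10.34 and 9.81 FPKM with STZ against 11.1, 11.07 and 11.38 in control (log2 difference -0.11, adjusted p = 0.0629), although the groups did not overlap. Cyp2f2, known for activating naphthalene in lung, read 4.33, 7.63 and 8.54 with STZ and 7.35, 8.45 and 10.44 in control (log2 difference -0.35). Cyp2c29 had a log2 difference of -0.10. For Cyp3a41b (log2 difference 0.25), 93.5% of 50-base stretches also occur in Cyp3a41a, and the 2 genes read 0 in different libraries, so only their sum is usable: it was 0.41 to 0.53 FPKM in control and 0.65 to 1.83 with STZ.

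**Figure D2:**
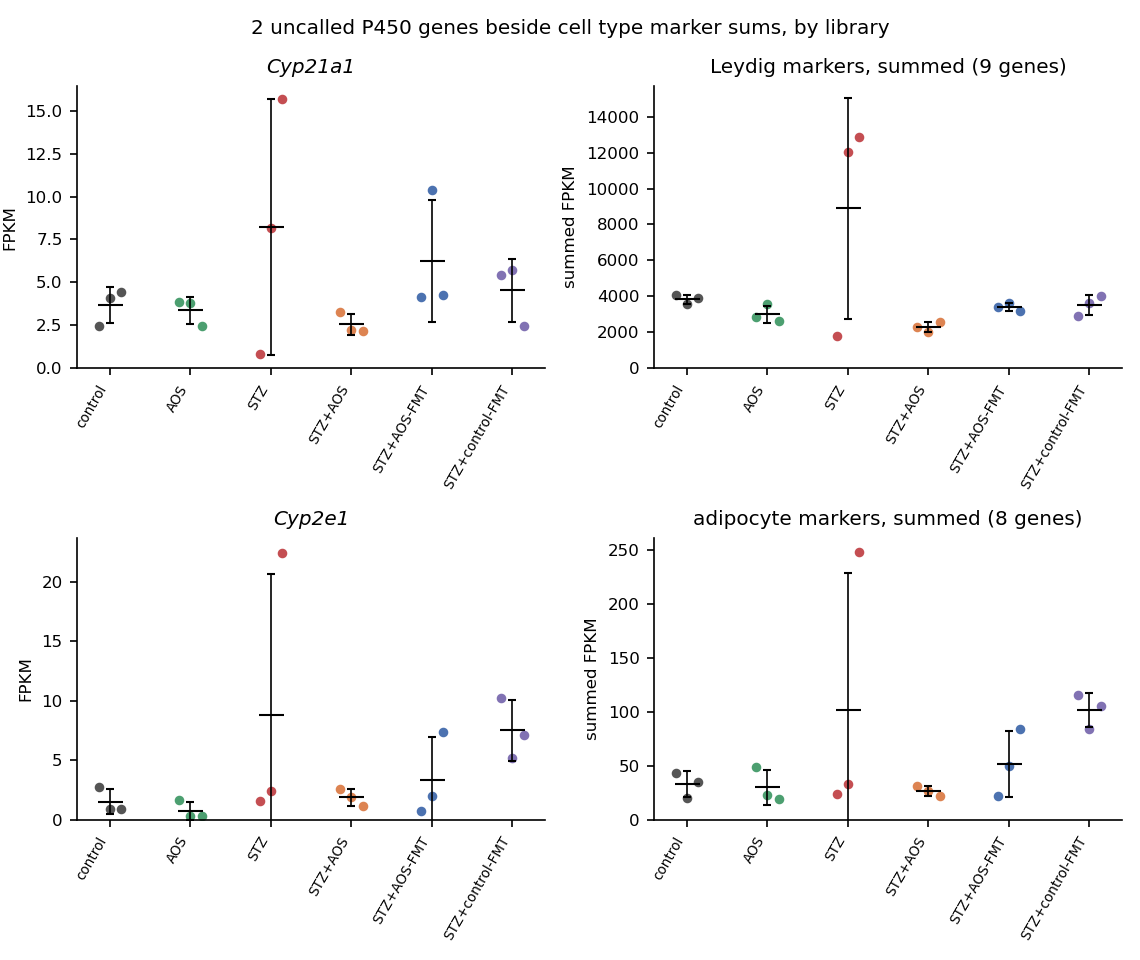
FPKM of Cyp21a1 and Cyp2e1 (left) beside the summed FPKM of the 9 Leydig and 8 adipocyte markers (right), by group, on linear axes from 0. Points are single libraries and bars are the mean and SD, cut off at 0. The STZ libraries with high Cyp21a1 (8.19 and 15.7) have Leydig sums of 12030 and 12850, and the library with Cyp2e1 at 22.48 has an adipocyte sum of 247.5. Insl3 is the largest part of the Leydig sum.

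Cyp2e1 and Cyp21a1 were uneven between the STZ libraries, and neither passed. Cyp2e1, which oxidizes ethanol and acetone (chr7:140763739-140774987), read 1.59, 2.39 and 22.48 FPKM with STZ against 2.74, 0.91 and 0.91 in control (log2 difference 1.31, 95% interval -0.13 to 2.75, adjusted p = 0.114). It also read 10.26, 5.19 and 7.1 with STZ+control-FMT, against 0.28 to 2.74 in control, AOS and STZ+AOS together, and 0.74, 1.98 and 7.42 with STZ+AOS-FMT. High Cyp2e1 libraries were libraries with high adipocyte markers: those markers summed to 23.52, 33.44 and 247.5 FPKM in the STZ libraries, 115.8, 84.22 and 104.8 with STZ+control-FMT, 22.07, 49.31 and 83.59 with STZ+AOS-FMT and 18.87 to 48.82 in the remaining groups. None of 7 tested adipocyte markers passed between STZ and control; their part in the Cyp2e1 values was not tested.

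Cyp21a1, an adrenal enzyme that hydroxylates progesterone on the way to corticosterone (chr17:34801348-34804561), read 2.48, 4.1 and 4.45 FPKM in control and 0.81, 8.19 and 15.7 with STZ (log2 difference 0.51, 95% interval -0.70 to 1.71, adjusted p = 0.467). The Leydig marker sum of those STZ libraries was 1808, 12030 and 12850 FPKM, against 3555 to 4070 in control. Most of this sum was Insl3, with means of 7993 FPKM with STZ and 3144 in control. Within the STZ group the low and high libraries of Cyp21a1 and of the sum were the same. An STZ+AOS-FMT library did not follow this: Cyp21a1 read 4.17, 10.37 and 4.25 with STZ+AOS-FMT, and the library at 10.37 had a Leydig sum of 3604, within the control range. Adrenal cortex markers, of which 2 of 4 were tested and neither passed, summed to 5.47, 28.5 and 23.25 FPKM with STZ and 6.76 to 11.59 in control, but to 8.25 in that STZ+AOS-FMT library and 89.54 in STZ+control-FMT replicate 2, where Cyp21a1 read 5.73. Mrap held most of the adrenal cortex sum with STZ and in control, at means of 17.83 and 9.03 FPKM. STZ+control-FMT replicate 2 also had the highest epididymis marker sum, 269.8 FPKM. The part of these marker lists in the Cyp21a1 values was not tested. Leaving out STZ replicate 1, the library with the low sum, gave Cyp21a1 a log2 difference of 1.43 (adjusted p = 0.00319), and Cyp2e1 one of 1.90 (adjusted p = 0.0272). Without that library Cyp4f15 (0.79), Cyp2d26 (-0.37) and Cyp2c55 (-0.14) passed as well and Cyp4f37 did not. This made 11 of the 26 P450 genes higher and 3 lower, where 6877 of all 14164 genes were higher and 2117 lower. Leaving out either other STZ library gave neither call: without STZ replicate 3, Cyp21a1 had a log2 difference of -0.17 (adjusted p = 0.819) and Cyp2e1 one of 0.31 (adjusted p = 0.66), and without STZ replicate 2 these were 0.26 (adjusted p = 0.761) and 1.71 (adjusted p = 0.0726). Of the 50-base stretches of Cyp21a1 transcripts, 21.3% also occur in the pseudogene Cyp21a2-ps, and Tnxa on the other strand overlaps its exons.

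The fatty acid enzymes included 4 of the 10 called genes. Cyp4v3, the mouse counterpart of a human omega-hydroxylase gene mutated in a crystalline retinal dystrophy (chr8:45304944-45333216, minus strand), read 0.54, 0.69 and 0.7 FPKM in control and 1.31, 1.4 and 1.44 with STZ, above the 0.38 to 0.7 of the other 15 libraries. Only the STZ libraries of Cyp4v3 reached 1 FPKM, so passing the filter and this separation are not independent. The means were 1.38 ± 0.07 and 0.64 ± 0.09, a log2 difference of 0.54 (SE 0.09, adjusted p = 0.00013). An overlapping gene on the same strand, Gm45753, shares part of its exons.

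A run of 8 Cyp4f genes lies on chromosome 17, where the order along the chromosome is Cyp4f39, Cyp4f17, Cyp4f16, Cyp4f37, Cyp4f40 and Cyp4f15 on the plus strand and then Cyp4f14 and Cyp4f13 on the minus strand. They are omega-hydroxylases of fatty acids, and some also inactivate leukotrienes. The neighbours did not move together: Cyp4f13 and Cyp4f17 rose, Cyp4f37 fell, and Cyp4f39, Cyp4f14 and Cyp4f15 did not pass. To show how alike the starts of family members are, 4 windows before the RefSeq gene start on GRCm38.p6 are printed 5′ to 3′, with the capitals marking a CCAAT box, which reads ATTGG on these strands. The window of Cyp4f13 (chr17:32947403-32947611, minus strand) has the 41 bases inside the GENCODE gene model left off, that of Cyp4f37 (chr17:32621069-32621308, plus strand) has 10 left off, and those of Cyp4f16 (chr17:32536307-32536556, plus strand) and of Cyp4f18, a low family member elsewhere (chr8:72009627-72009876, minus strand), are whole.
Cyp4f13: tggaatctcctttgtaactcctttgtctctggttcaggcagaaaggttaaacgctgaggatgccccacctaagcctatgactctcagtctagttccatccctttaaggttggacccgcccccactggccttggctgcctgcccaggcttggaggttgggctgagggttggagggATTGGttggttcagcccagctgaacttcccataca
Cyp4f16: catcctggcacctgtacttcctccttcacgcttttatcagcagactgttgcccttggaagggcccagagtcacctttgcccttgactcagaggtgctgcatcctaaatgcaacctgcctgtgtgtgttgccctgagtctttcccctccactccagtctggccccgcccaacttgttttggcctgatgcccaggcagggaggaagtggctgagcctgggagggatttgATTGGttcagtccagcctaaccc
Cyp4f37: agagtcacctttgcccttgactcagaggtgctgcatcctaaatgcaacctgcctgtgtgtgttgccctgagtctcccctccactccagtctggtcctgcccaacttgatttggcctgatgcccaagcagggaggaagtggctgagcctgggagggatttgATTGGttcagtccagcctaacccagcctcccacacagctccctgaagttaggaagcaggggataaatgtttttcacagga
Cyp4f18: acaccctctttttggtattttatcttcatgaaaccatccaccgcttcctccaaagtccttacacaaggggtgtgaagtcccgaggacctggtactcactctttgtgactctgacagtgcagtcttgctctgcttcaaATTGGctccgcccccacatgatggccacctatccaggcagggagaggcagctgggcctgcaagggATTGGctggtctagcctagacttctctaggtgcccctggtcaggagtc
The box began 76 bases before the start in Cyp4f13, 23 in Cyp4f16 and 90 in Cyp4f37, and at 113 and 48 bases in Cyp4f18. CCAAT on either strand was present in 28 of 72 P450 windows (38.9%), in 11 of 21 windows of tested genes (52.4%) and in 33.8% of all RefSeq windows. Over the full windows, Cyp4f16 and Cyp4f37 were identical at 179 of 183 aligned bases (97.8%), with a shared run of 74 bases, and the other pairs at 70.6% to 76.1%. Of the 4 windows compared, the 2 most alike were those of Cyp4f16 and Cyp4f37.

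**Figure D3:**
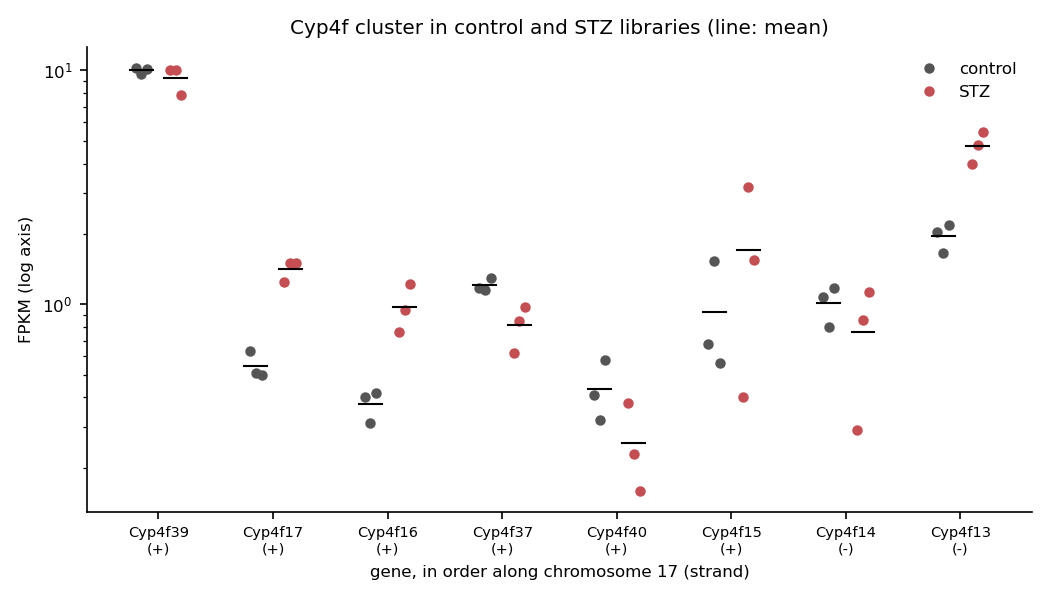
FPKM (log axis) of the 8 Cyp4f genes of the chromosome 17 cluster, in order along the chromosome, in the control and STZ libraries. Points are single libraries and lines the group means; Cyp4f13, Cyp4f17 and Cyp4f16 are higher with STZ and Cyp4f37 and Cyp4f40 lower.

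Cyp4f13 (chr17:32924688-32947402) had the largest difference of the tested cluster genes on the log2(FPKM + 1) scale, at 2.03, 1.65 and 2.18 FPKM in control and 3.99, 4.81 and 5.45 with STZ, above all other libraries (1.08 to 3.09). The means were 4.75 ± 0.73 and 1.95 ± 0.27 (n = 3 each), a log2 difference of 0.96 (SE 0.17, adjusted p = 0.000254). Cyp4f17 (chr17:32506050-32530143) read 0.63, 0.51 and 0.5 in control and 1.25, 1.5 and 1.51 with STZ. The log2 difference was 0.65 (SE 0.14, adjusted p = 0.00128), and the other 15 libraries lay at 0.24 to 1.17. Cyp4f17 reached the filter only through the STZ libraries.

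Cyp4f37 (chr17:32621309-32636184) read 1.18, 1.15 and 1.3 in control and 0.62, 0.85 and 0.97 with STZ (log2 difference -0.29, SE 0.11, adjusted p = 0.0344), the weakest of the 10 calls. It was lost in 6 of 12 alternatives, with adjusted p = 0.115 without STZ replicate 1, 0.0557 without STZ replicate 2, and 0.0642, 0.0556 and 0.0979 without control replicates 1, 2 and 3. STZ libraries overlapped those of other treated groups. Its neighbour Cyp4f16, which shares 18.9% of Cyp4f37's 50-base stretches, did not reach the filter; in the fit without a filter it was higher with STZ, at 0.76, 0.95 and 1.22 against 0.4, 0.31 and 0.42 FPKM (log2 difference 0.52, adjusted p = 0.00351). Reads of such a pair can be split between them by the counting, so both values are uncertain.

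The remaining members of the group did not pass. Cyp4f39, the highest family 4 gene and the enzyme of very long-chain fatty acids in skin, stood at 9.33 ± 1.27 against 10.02 ± 0.28 FPKM (log2 difference -0.10), and was called lower with median centring (-0.44) and quantile normalization (-0.45). Cyp4f15 read 0.4, 3.16 and 1.55 with STZ against 0.68, 1.54 and 0.56 (log2 difference 0.39), Cyp4f14 read 0.29, 0.86 and 1.13 against 1.07, 0.8 and 1.17 (log2 difference -0.22), and Cyp2u1 had a log2 difference of -0.10.

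Among sterol enzymes, Cyp27a1 rose. This mitochondrial enzyme hydroxylates the side chain of cholesterol in bile acid and oxysterol synthesis (chr1:74713574-74737892). It read 4.62, 4.54 and 5.01 FPKM in control and 4.81, 7.85 and 10.01 with STZ, so 1 STZ library lay within the control range (log2 difference 0.53, SE 0.18, adjusted p = 0.022). The call was lost in 7 of 12 alternatives, among them without STZ replicate 2 (adjusted p = 0.0696), STZ replicate 3 (0.141), control replicate 1 (0.0553) and control replicate 2 (0.0586). Cyp46a1, the cholesterol hydroxylase best known from neurons and the highest of the group, read 7.67, 5.83 and 6.26 with STZ against 6.47, 5.69 and 5.88 (log2 difference 0.11), and Cyp39a1 had a log2 difference of 0.04.

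In the hormone and vitamin groups no tested gene passed. Cyp19a1, the aromatase that makes oestrogen, read 3.53, 2.49 and 2.9 FPKM with STZ against 3.77, 3.01 and 3.08 (log2 difference -0.11). Cyp2r1, which hydroxylates vitamin D, read 1.79, 1.94 and 1.76 against 1.46, 1.74 and 1.32 (log2 difference 0.18). Cyp26a1, which clears retinoic acid, read 1.45, 1.11 and 1.18 against 1.08, 0.98 and 0.81 (log2 difference 0.20). Cyp20a1, a P450 without a known substrate (chr1:60343323-60388060), rose from 1.17, 1.61 and 1.2 to 1.67, 3.83 and 3.07 (log2 difference 0.69, SE 0.18, adjusted p = 0.00405), with STZ replicate 1 within the range of other groups.

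**Figure D4:**
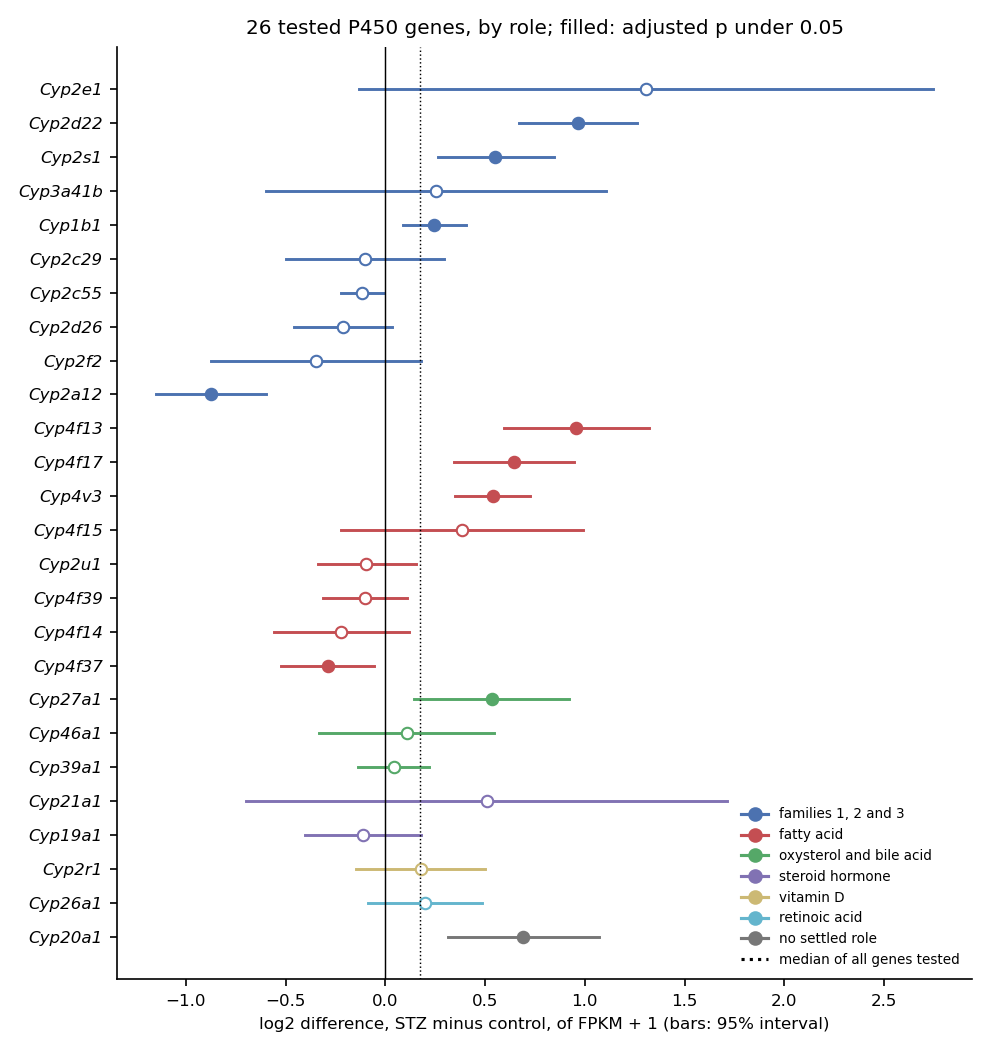
Log2 difference of FPKM + 1 between STZ and control for the 26 tested P450 genes, by role (colour), with 95% confidence intervals as bars and the median of all genes as a dotted line; filled points passed at an adjusted p under 0.05. The 8 raised genes lie from 0.25 (Cyp1b1) to 0.97 (Cyp2d22), and Cyp2a12 (-0.87) and Cyp4f37 (-0.29) lie below 0.

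The 3 treated STZ groups were compared with STZ alone. These comparisons share the STZ libraries with STZ against control, so a gene that is high in those 3 libraries enters all of them as lower. With STZ+AOS, 7 of the 26 genes were lower (43.1% of all genes) and 2 higher (11.9% of all genes). With STZ+AOS-FMT 8 were lower (44.5%) and 3 higher (12%), and with STZ+control-FMT 7 were lower (39.9%) and 2 higher (11.4%). The 7 genes lower in all 3 comparisons were Cyp4v3, Cyp2d22, Cyp20a1, Cyp4f17, Cyp27a1, Cyp2s1 and Cyp4f13, all of them raised in STZ against control, and Cyp4f15 was lower with STZ+AOS-FMT alone, at 0.35, 0.35 and 0.38 FPKM (log2 difference -0.85, adjusted p = 0.0188), a call lost without STZ replicate 2 or STZ replicate 3. Cyp4f15, Cyp4v3, Cyp4f17 and Cyp2s1 reached the filter only through the STZ libraries. They entered these tests because they were high in the STZ group, which all 3 comparisons share. Between the 2 transplant groups Cyp4f15 did not pass. Cyp2a12 was higher in all 3 comparisons. The balance of calls depended on scaling: with median centring 12 genes were higher and 5 lower for STZ+AOS, 10 and 5 for STZ+AOS-FMT and 10 and 6 for STZ+control-FMT, and with quantile normalization 10 and 3, 11 and 4, and 10 and 6. All-gene calls for STZ+AOS against STZ moved likewise, from 1680 higher and 6106 lower to 6319 and 2818 with median centring.

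Values of Cyp2d22 and Cyp2a12 are given side by side. Cyp2d22 read 3.73, 3.41 and 4.46 FPKM with STZ+AOS, 2.93, 3.61 and 3.46 with STZ+AOS-FMT and 3.48, 3.85 and 4.89 with STZ+control-FMT, and its log2 differences from STZ were -1.06, -1.23 and -1.01 (adjusted p = 1.76e-05, 3.91e-06 and 3.44e-05). Cyp2a12 read 13.1, 12.9 and 11.68, then 11.81, 13.01 and 14, then 13.32, 12.04 and 12.5, with log2 differences of 0.86, 0.90 and 0.87 (adjusted p = 5.81e-05, 3.33e-05 and 6.61e-05). In each of the 3 groups all libraries of both genes lay on the control side of the STZ libraries.

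Cyp27a1 stood at 2.44, 3.05 and 2.84 FPKM with STZ+AOS, 4.01, 3.47 and 3.32 with STZ+AOS-FMT and 3.11, 3.86 and 3.75 with STZ+control-FMT. Its log2 differences from STZ were -1.14, -0.85 and -0.86. Every one of these 9 libraries was below the 3 STZ libraries and also below the 3 control libraries (4.54 to 5.01), although no difference from control passed. With AOS alone Cyp27a1 read 2.98, 4.83 and 3.13 FPKM. Its log2 differences from control were -0.32 with AOS, -0.60 with STZ+AOS, -0.32 with STZ+AOS-FMT and -0.33 with STZ+control-FMT. 

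The other lowered genes were small in level. Cyp4f13 read 2.28, 1.85 and 2.8 FPKM with STZ+AOS, 2.03, 2.33 and 2.44 with STZ+AOS-FMT and 1.56, 3.09 and 2.25 with STZ+control-FMT, with log2 differences from STZ of -0.80, -0.81 and -0.82 (adjusted p = 0.00111, 0.000926 and 0.00105). Cyp4v3 read 0.38, 0.47 and 0.58, then 0.53, 0.51 and 0.38, then 0.53, 0.69 and 0.49 in the same order of groups, with log2 differences of -0.69, -0.69 and -0.60 (adjusted p = 1.46e-05, 1.15e-05 and 5.93e-05). All of these libraries lay below the STZ libraries of the same gene, which for Cyp4v3 follows from how it passed the filter. Cyp2s1 read 0.78, 0.78 and 0.98, then 0.7, 0.65 and 0.73, then 0.48, 0.8 and 0.73, with log2 differences of -0.54, -0.66 and -0.68. Cyp4f17 read 1.17, 0.66 and 0.24, then 0.66, 0.66 and 0.55, then 0.52, 0.52 and 0.56, with log2 differences of -0.55, -0.57 and -0.66. The STZ+AOS group was the widest for Cyp4f17, its highest library coming close to the lowest STZ library at 1.25. Cyp20a1 read 1.53, 1.38 and 0.96, then 1.89, 1.42 and 1.18, then 1.26, 1.75 and 1.54, with log2 differences of -0.72, -0.59 and -0.58. Of these, 1 library in each transplant group overlapped STZ replicate 1, and the Cyp20a1 call with STZ+AOS-FMT was lost without STZ replicate 2, and that with STZ+control-FMT without STZ replicate 2, STZ replicate 3 or STZ+control-FMT replicate 1.

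Cyp2c55 differed in another way. This arachidonic acid oxidase (chr19:39007019-39042693) read 12.45, 12.97 and 12.43 FPKM with STZ+AOS, above all 15 other libraries, whose highest was 11.94. The log2 difference from STZ was 0.27 (SE 0.05, adjusted p = 0.000303), kept in all 12 alternatives. It read 11.4, 11.18 and 11.94 with STZ+AOS-FMT (log2 difference 0.15, adjusted p = 0.0172, lost without STZ+AOS-FMT replicate 3 or STZ replicate 3), 9.94, 10.01 and 9.35 with AOS alone, and 11.26, 11.22 and 10.79 with STZ+control-FMT, where it did not pass against STZ. Cyp2d26 passed above STZ with STZ+AOS-FMT (17.17, 18.56 and 17.64, log2 difference 0.31, adjusted p = 0.0318) and STZ+control-FMT (15.92, 18 and 19.09, log2 difference 0.30, adjusted p = 0.0416). Both calls were lost without STZ replicate 2, without STZ replicate 3, without replicate 2 or 3 of the transplant group and with only the groups compared in the fit (adjusted p = 0.134 and 0.179), and the second also without the low-value filter (adjusted p = 0.0562).

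**Figure D5:**
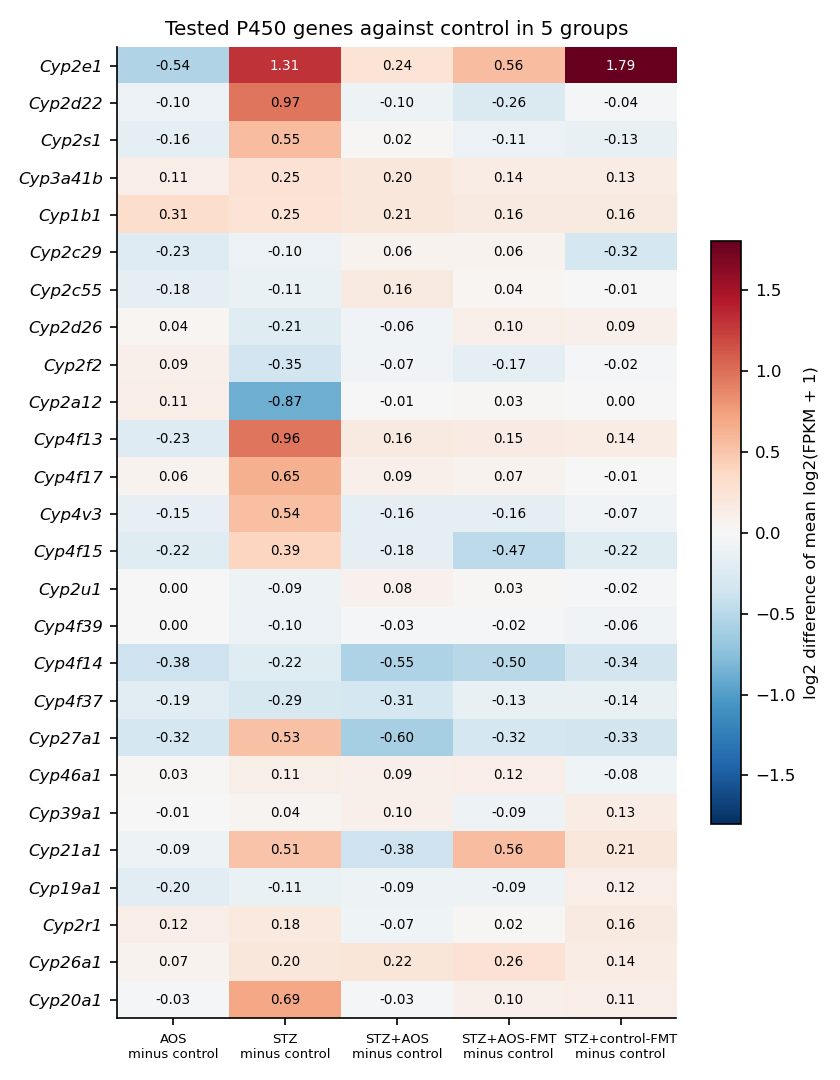
Difference of each group's mean log2(FPKM + 1) from the control mean for the 26 tested P450 genes (rows) in the 5 other groups (columns). Colour and printed value give the log2 difference; the STZ column runs from -0.87 (Cyp2a12) to 1.31 (Cyp2e1, not called), and the widest value elsewhere is 1.79, for Cyp2e1 with STZ+control-FMT, which did not pass either.

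Against control, no P450 gene passed with AOS, STZ+AOS, STZ+AOS-FMT or STZ+control-FMT. In these comparisons the background was 0% of all genes higher and 0% lower for AOS, 0.0141% and 0.0282% for STZ+AOS, and 0% in both directions for each transplant group, by limma at an adjusted p under 0.05. Without adjustment, p under 0.05 was met by 1 higher and 2 lower P450 genes with AOS, 2 and 3 with STZ+AOS, 1 and 1 with STZ+AOS-FMT and 2 and 1 with STZ+control-FMT. Of all 14164 genes, the same threshold was met by 553 higher and 720 lower with AOS, 633 and 497 with STZ+AOS, 475 and 452 with STZ+AOS-FMT, and 627 and 256 with STZ+control-FMT. The widest of these was Cyp2e1 with STZ+control-FMT, at 7.52 ± 2.56 against 1.52 ± 1.06 FPKM (log2 difference 1.79, 95% interval 0.35 to 3.23, adjusted p = 0.727), beside the adipocyte sums given above. A p that misses the threshold does not show that the groups are alike. Cyp1b1 was above the control libraries in all 3 AOS libraries (log2 difference 0.31, 95% interval 0.15 to 0.47, adjusted p = 0.407). Cyp4f14 was below control in every library of the STZ+AOS group (0.39, 0.3 and 0.42 FPKM, log2 difference -0.55, 95% interval -0.89 to -0.22, adjusted p = 0.349) and of both transplant groups, and its log2 difference was -0.38 with AOS. It reached 1 FPKM in 3 libraries only, control replicates 1 and 3 and STZ replicate 3, so it would not have been tested without its control values. Between the 2 transplant groups no gene passed (0% of all genes in either direction); Cyp39a1 had an unadjusted difference, at 2.48 ± 0.34 with STZ+AOS-FMT against 3.04 ± 0.02 FPKM (log2 difference -0.22, adjusted p = 0.79).

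Over all 6 groups, 10 of the 26 genes differed by limma's F test (38.5%, against 52.3% of all genes). Among the 10 were Cyp4v3, Cyp4f17 and Cyp2s1, which reached the filter only through the STZ libraries. The effect of AOS with STZ was also compared with its effect without STZ, as an interaction chosen after seeing the data: 2 genes had a higher value with STZ (6.12% of all genes) and 6 a lower one (29.1% of all genes).

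The P450s need partner proteins, and genes of these were listed by their known function. Of 49 partner genes, 42 were tested; 30 were higher and 1 lower with STZ than in control, where 43.2% of all genes were higher and 12% lower; the median log2 difference of all genes was 0.17. Among electron donors and membrane partners 8 of 10 were higher, with a median log2 difference of 0.57: Cyb5r1 stood at 28.47 ± 6.57 against 12 ± 1.25 FPKM (log2 difference 1.16), cytochrome b5 itself, Cyb5a, had a log2 difference of 1.04, Cyb5r3 one of 0.96, and Por, the electron donor of nearly all microsomal P450s, stood at 17.23 ± 4.33 against 10.36 ± 0.51 (log2 difference 0.65, adjusted p = 0.00117). Fdx1 and Pgrmc2 did not pass. Haem is the cofactor of every P450, and 9 of 12 genes of its synthesis and breakdown were higher, among them Alad (log2 difference 0.94), Urod (0.68) and Ppox (0.82). Hmox2, a haem oxygenase that is abundant in testis, was lower at 540.5 ± 82.4 against 648.2 ± 24.9 FPKM (log2 difference -0.27).

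Of the 15 nuclear receptors and sensors listed as controlling P450 genes, 10 were tested and 8 were higher. The log2 differences were 0.55 for the oxysterol receptor Nr1h2, 0.40 for Rxrb, 0.79 for the vitamin D receptor Vdr and 0.48 for Rxra. The other 5, the aryl hydrocarbon receptor Ahr, Ahrr, Nr1i2, Nr1i3 and Nr1h4, stayed below 1 FPKM in every library and were not tested. Under median centring this list held 2 higher and 1 lower, and under quantile normalization 3 higher and 1 lower. Rxrb was then at 0.06 and 0.04 and Rxra at 0.14 and 0.13, neither called under either scaling, and Nr1h2 was called under quantile normalization but not median centring. In the list of enzymes acting on P450 products 5 of 10 were higher, a share near that of all genes. They included Ephx2 (log2 difference 0.63), which opens fatty acid epoxides, and Sult1a1 (0.71). Ptgis (0.95), which makes prostacyclin, was also counted in this list. It is itself a P450 enzyme, but its symbol does not begin with Cyp, so the rule did not take it into the set. The partner calls shrank but kept their direction on balance under the 2 scalings that moved the all-gene median, at 14 higher and 4 lower with median centring and 16 higher and 3 lower with quantile normalization. Of the partner genes named here, Cyb5r1, Cyb5a, Cyb5r3, Por, Alad, Urod, Ppox, Vdr and Ptgis stayed called as higher, and Hmox2 as lower, under both. Against STZ, 36 of the 42 were lower with STZ+AOS, 34 with STZ+AOS-FMT and 26 with STZ+control-FMT, where 43.1%, 44.5% and 39.9% of all genes were lower; these comparisons share the STZ libraries.

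The 65 genes below the filter were mostly near 0. For 2 of them every library read 0, 51 stayed below 0.5 FPKM everywhere (highest value 0.44) and 12 reached 0.5 in at least 1 library. The 12 were Cyp2c65, Cyp2j6, Cyp4f16, Cyp3a41a, Cyp4a12a, Cyp2c23, Cyp2j13, Cyp4b1, Cyp7a1, Cyp4f40, Cyp2j9 and Cyp4f18. In a fit without a filter, on 20590 genes, 7023 genes were higher with STZ than in control and 1655 lower. Among the low P450 genes Cyp4f16, Cyp4f18 and Cyp2j9 were higher and Cyp7a1, Cyp4f40 and Cyp11b2 lower. Cyp11b2 read at most 0.14 FPKM in any library. Cyp4f18, a hydroxylase of leukotrienes in white blood cells, read 0.22, 0.5 and 0.37 FPKM with STZ against 0, 0.04 and 0 in control (adjusted p = 3.78e-05). The macrophage marker sum in those libraries was also above control, and its part was not tested. Cyp7a1, the rate-limiting enzyme of classical bile acid synthesis, read 0.25, 0.08 and 0.61 in control and 0.24, 0.31 and 0.03 with AOS, and at most 0.05 in all 12 libraries of the STZ-treated groups.

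Cyp4a12a and Cyp2j13 were highest in libraries that also held epididymal transcripts, though not in each such library. Cyp4a12a, an androgen-responsive kidney enzyme, was 1.04 FPKM in STZ+control-FMT replicate 2 and 0.5 in control replicate 3, but 0.08 in STZ+control-FMT replicate 3, and at most 0.12 in the other libraries. Cyp2j13 was 0.79 in that transplant library, 0.24 in control replicate 3 and 0.21 in STZ+control-FMT replicate 3. Epididymis markers summed to 269.8, 169.1 and 239.2 FPKM in those 3 libraries and to at most 19.11 in the other 15; STZ+control-FMT replicate 3, with the second highest sum, was low for Cyp4a12a. The part of epididymal RNA in these values was not tested.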

How the data were processed

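RNA sequencing of whole mouse testis was used as deposited: the authors' table gives 1 value for each gene in each library with no unit in the header. The deposited numbers were treated as FPKM, fragments that the authors scaled by transcript length and library depth, since low values step in multiples that differ by gene and column sums differ; no label or header states this, and RPKM or similar scaling cannot be told apart. Bowtie 0.12.2 and mm10 stand in the submitters' processing notes with no stated role; the counter used was not given in the sources used here. Groups came from the labels. Values were tested as log2(FPKM + 1) with limma 3.58.1 (trend, R 4.3.3) over all 18 libraries, 1 mean per group and no replicate block, for the 14164 genes at 1 FPKM or more in at least 3 libraries, two-sided, with Benjamini-Hochberg adjustment within each comparison and calls at adjusted p under 0.05. Read depth is unknown. The fitting code was tested on simulated data.

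The gene set and lists were chosen with earlier results of these data known. The rule named every tested member, low members at 0.5 FPKM or more, and up to 4 partner genes per list by smallest p; other low members, Fdx1, Pgrmc2 and Hmox2 were chosen after their values were seen. Values of some partner genes are not reported here. Coordinates are GENCODE M21 on GRCm38, where all 91 genes matched; promoters are RefSeq, with 72 matched. Alternatives were pseudocount, filter, scaling, samples in the fit, a replicate block and leaving out each library.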

Additional observations from a re-analysis of the deposited data

Results flagged for a closer look

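In 8 P450 genes the effect of AOS differed with and without STZ by limma's interaction test, chosen after seeing the data. Of the 26 tested, 2 were higher (7.69%, against 6.12% of all genes) and 6 lower (23.1%, against 29.1%), shares near those of all genes. The differences in log2(FPKM + 1), effect with STZ minus effect without, were -0.544 for Cyp4v3 (adjusted p = 0.00431), 0.749 for Cyp2a12 (0.00603), -0.962 for Cyp2d22 (0.00208), -0.345 for Cyp1b1 (0.0189), -0.687 for Cyp20a1 (0.0443), -0.612 for Cyp4f17 (0.0265), -0.813 for Cyp27a1 (0.0239) and 0.454 for Cyp2c55 (0.000329). With median centring and with quantile normalization Cyp2a12 (1.057 and 1.101), Cyp2d22 (-0.653 and -0.621) and Cyp2c55 (0.762 and 0.75) still passed and the other 5 did not. These values use the same libraries as the comparisons above. Cyp4v3 and Cyp4f17 reached the filter only through the STZ libraries, which enter this difference. The AOS effect without STZ came from control and AOS libraries in which no P450 gene passed.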

How the results depend on the processing

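Of 47 single-gene calls, 612 values were recomputed under alternatives: 512 kept direction and call, 97 kept direction and lost the call, and 3 reversed. The reversals were Cyp1b1 in STZ against control (-0.152 quantile, -0.098 median centring) and its interaction (0.024 quantile). Counts of P450 genes changed as follows; the cause was not tested, except that no filter tests more genes and the fit of only the groups compared has fewer libraries. Without a filter, P450 genes lower with STZ than control were 5 (1655 of all 20590 genes). Those lower with STZ+AOS than STZ were 12 (7098 of all genes), and those differing among the 6 groups by the F test 16. All-gene counts were not recorded for that F test, nor for the interaction under the alternatives below, so their P450 counts have no background. With quantile normalization, STZ against control gave 4 higher and 10 lower (3156 and 4093 of all genes), and 19 partner genes called. Against STZ, STZ+AOS gave 10 higher and 3 lower (4242 and 3108 of all genes). STZ+AOS-FMT gave 11 and 4 (4220 and 3205), and STZ+control-FMT 10 higher (3706). The interaction gave 5 higher and 1 lower. With median centring, the same counts were 2 and 10 (2678 and 6119 of all genes), with 18 partner genes. They were 12 higher (6319) for STZ+AOS, 10 and 5 (6350 and 2744) for STZ+AOS-FMT and 10 higher (5936) for STZ+control-FMT. The interaction gave 5 and 1. With only the groups compared, STZ against control gave 5 higher and 1 lower (4483 and 649 of all genes). STZ+AOS-FMT and STZ+control-FMT gave 1 higher than STZ each (573 and 430 of all genes). STZ+AOS against control gave 1 lower (70 of all genes), and the interaction 3 lower. Leaving out single libraries gave 6 to 11 higher and 1 to 3 lower for STZ against control (5017 to 6877 and 1130 to 2117 of all genes). It gave 1 to 3 higher for each transplant group against STZ (1055 to 2082 of all genes), and 1 to 9 lower for the interaction. The lower count for STZ against control fell to 1 without STZ replicate 2 or any control library. A replicate block left 1 gene higher with STZ+control-FMT than STZ (2 without it, with Cyp2d26 lost at adjusted p = 0.0563) and changed no other count by over 1.5 times. Same-numbered libraries were not treated as pairs, since no comparison had all 3 pair correlations of deviations over 0.1 (range -0.205 to 0.201). With 3 libraries a group, this check cannot show that no batch was shared. Unknown depth limits low genes: no interval could be given.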
